A study of Mus musculus with 7 samples.

Results

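Expression of 29 mouse genes whose human orthologues have been linked to amyotrophic lateral sclerosis (ALS) was examined in the cervical spinal cord of mice with and without the long non-coding RNA *Neat1*. The genes were *Sqstm1*, *Optn*, *Tbk1*, *Vcp*, *Ubqln2*, *Ccnf*, *C9orf72*, *Fig4*, *Vapb*, *Chmp2b*, *Anxa11*, *Spg11*, *Scfd1*, *Glt8d1*, *Kif5a*, *Dctn1*, *Tuba4a*, *Pfn1*, *Atxn2*, *Tia1*, *Hnrnpa1*, *Hnrnpa2b1*, *Elp3*, *Unc13a*, *Erbb4*, *Epha4*, *Chchd10*, *Sarm1* and *Nek1*. They were taken from a list of ALS-linked genes that leaves out *Sod1*, and the rule used no measured value. All 29 were found by their GENCODE M21 symbol among the 55487 genes of the count table.

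The libraries came from 4 *Neat1*-KO; hSOD1G93A mice and 3 *Neat1*-WT; hSOD1G93A mice, all 8 weeks of age. *Neat1*-KO means *Neat1*-/- and *Neat1*-WT means *Neat1*+/+, and both were offspring of *Neat1*+/-; hSOD1G93A males and *Neat1*+/- females. Every mouse carried hSOD1G93A, a human SOD1 transgene with a mutation of familial ALS, and no library from mice without the transgene was analysed here. The libraries are called *Neat1*-KO replicates 1 to 4 and *Neat1*-WT replicates 2 to 4, after the numbers in the sample labels. The comparison asked whether the RNA of genes that carry ALS risk differed with the loss of *Neat1* at this age.

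ALS is the loss of upper and lower motor neurons, and its genes fall into a few groups by what their proteins do. Some clear damaged proteins and organelles through ubiquitin, autophagy and lysosomes, some move cargo along the axon, and some bind RNA and gather in stress granules. Others act at synapses, at the cell surface or in mitochondria. Most are expressed in many cell types of the spinal cord and not in motor neurons alone. In RNA from whole tissue, fewer cells of a type and less RNA per cell cannot be told apart.

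Each library held between 19661878 and 26031517 counts, and *Neat1* checked the labels. *Neat1* was at 4.04 to 5.52 CPM in the 4 *Neat1*-KO libraries and at 80.5 to 118.4 CPM in the 3 *Neat1*-WT libraries, a log2 fold change of −4.25 (SE 0.15) with an adjusted p of 1.52e-08 in edgeR. CPM is a count per 1000000 counts of library size, here the counts of the tested genes times the TMM factor. The defining markers of the cord were present in every library, among them *Chat* of motor neurons (31.2 to 41.1 CPM), *Rbfox3* of neurons (149.9 to 177.0 CPM), *Mbp* of oligodendrocytes (16824 to 20941 CPM), *Gfap* of astrocytes (1644 to 2908 CPM), *Cx3cr1* of microglia (23.7 to 46.8 CPM) and *Cldn5* of vessels (30.1 to 45.8 CPM). Blood (*Hba-a1*, 1.72 to 5.46 CPM) and meninges (*Dcn*, 19.4 to 50.4 CPM) were also seen. The summed Schwann cell list covered 155.1 to 461.5 CPM in *Neat1*-KO and 147.8 to 487.4 CPM in *Neat1*-WT libraries. *Avil* of sensory ganglia (0.23 to 1.12 CPM) was near the floor, as was *Acta1* of muscle (0.36 to 3.93 CPM) outside *Neat1*-WT replicate 4. *Scn10a*, *Trpv1*, *Myh4*, *Tnnt3* and *Pmp2* were at 0 in some libraries. All 4 muscle markers were highest in *Neat1*-WT replicate 4, with *Acta1* at 3.93 CPM and *Myh4* at 4.64 CPM there. A link of this muscle RNA to other values of that library was not tested.

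None of the 29 genes was called between the genotypes. Calls needed an absolute log2 fold change over 0.58, which is 1.49-fold, together with an edgeR quasi-likelihood p under 0.1 after Benjamini-Hochberg adjustment over the 18449 genes tested. All 29 were tested, 6 of all 18449 genes were called (0.0325%), and DESeq2 and limma-voom also called 0 of the 29. An unadjusted p under 0.05 was found for 1 of the 29, *Kif5a*, beside 4.64% of all genes tested, and DESeq2 and limma-voom gave 1 as well. *Kif5a* was no longer under 0.05 with the replicate number as a block, with *Xist* as a covariate, or when replicate 1, 3 or 4 of *Neat1*-KO was left out, and the same held for replicates 2 and 3 of *Neat1*-WT. The libraries of the genotypes overlapped for every one of the 29 genes, while 5.47% of all genes tested did not overlap (2.91% higher and 2.57% lower in *Neat1*-KO).

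The point estimates lay close to 0. They were above 0 for 18 genes and below 0 for 11, with a median log2 fold change of 0.008 beside 0.006 over all genes tested. The lowest was *Kif5a* at −0.21 (SE 0.09) and the highest *Optn* at 0.15 (SE 0.09). For all 29 genes the 95% interval of the log2 fold change lay inside ±0.58, which held for 69.2% of all genes tested. The widest interval was that of *Ccnf*, from −0.52 to 0.54, and *Ccnf* was also the gene with the fewest counts, 33 to 57 per library. For 26 of the 29 genes every library held at least 500 counts, and for 21 the standard error was under 0.1. Adjusted p-values of edgeR were between 0.992 and 0.999.

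**Figure D1:**
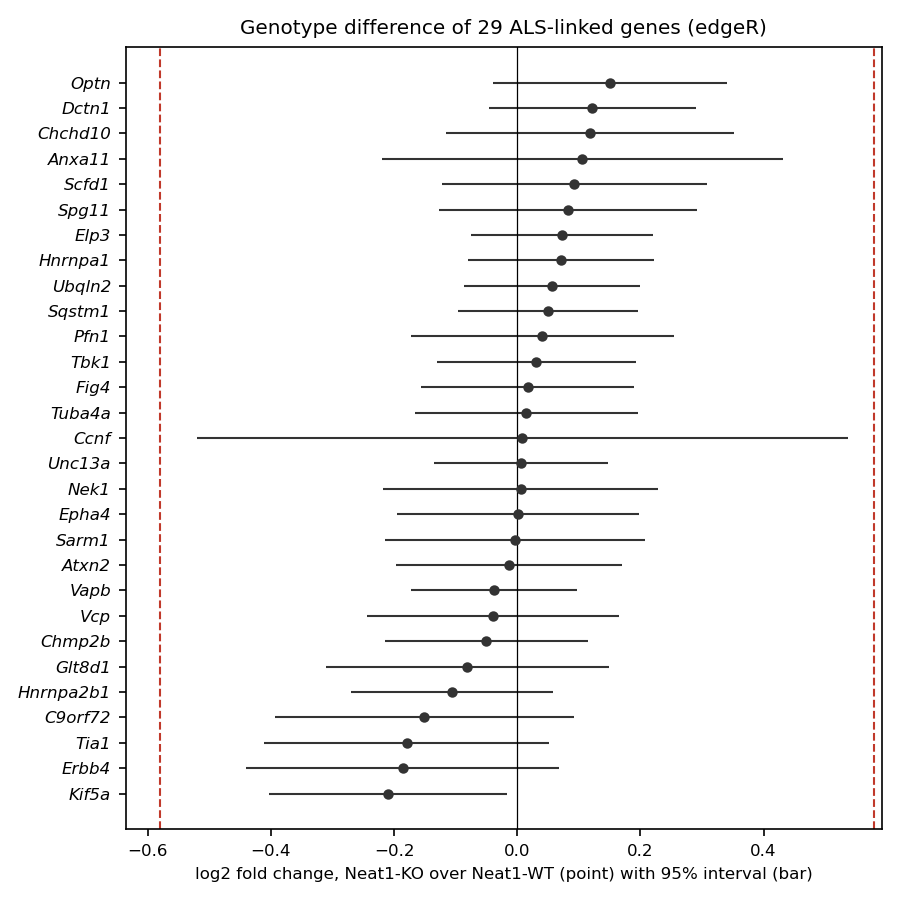
Log2 fold change of each of the 29 genes, *Neat1*-KO (n = 4) over *Neat1*-WT (n = 3), on the x axis, with genes on the y axis in order of the estimate. Points are edgeR estimates, bars their 95% intervals and dashed lines the minimum of 0.58 in either direction. Every bar stays between the dashed lines, and the bar of *Kif5a*, from −0.40 to −0.02, is the one that does not cross 0.

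The spread between libraries of one genotype was small for these genes. The median coefficient of variation was 7.4% in *Neat1*-KO and 7.3% in *Neat1*-WT, beside 11.8% and 9.7% over all genes tested. Over the 122 partner genes compared below, which are paralogues or work with these proteins, it was 7.4% and 5.8%. The small spread was thus not particular to the 29 genes. The ratio of the highest to the lowest of the 7 libraries ran from 1.08 to 1.50. The libraries differed in how far their genes lay from the genotype mean. Over the 29 genes the SD of these log2 deviations was 0.14 in *Neat1*-KO replicate 3 and 0.08 in *Neat1*-KO replicate 4, with the other 5 libraries in between. *Neat1*-KO replicate 3 was the highest of its genotype for 9 genes and the lowest for 10, and *Neat1*-KO replicate 4 for 5 and 2. Without *Neat1*-KO replicate 3, 6 of the 29 genes had an unadjusted p under 0.05 (*Optn*, *Dctn1*, *Tia1*, *Hnrnpa2b1*, *Erbb4* and *Chchd10*), and none was called. The share of all genes under 0.05 in that fit was not computed, so this count cannot be read as particular to the 29 genes.

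**Figure D2:**
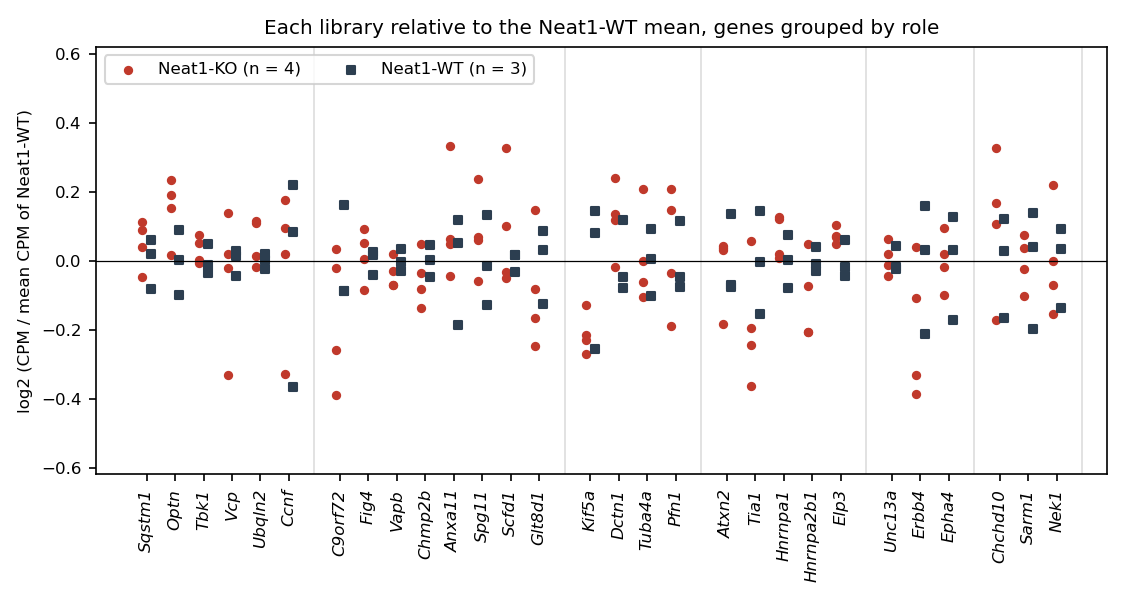
CPM of each library divided by the mean CPM of the *Neat1*-WT libraries, on a log2 scale (y axis), for the 29 genes grouped by role (x axis; vertical lines part the groups). Each point is a library, red circles are *Neat1*-KO (n = 4) and dark squares *Neat1*-WT (n = 3). Red and dark points intermix for every gene.

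Levels were compared between genes per kilobase of exon, as RPKM (CPM divided by the exon length in kilobases). The mean RPKM over the 7 libraries ran from 0.247 for *Ccnf* to 247.5 for *Kif5a*, a 1002-fold range, with a median of 11.3 beside 4.18 for all genes tested. In this order 22 of the 29 genes were at or above the median level of the tested genes, and 16 reached 10 RPKM. After *Kif5a* came *Sqstm1* (139.7 RPKM), *Chchd10* (111.1 RPKM), *Tuba4a* (109.6 RPKM), *Dctn1* (72.1 RPKM), *Vcp* (66.4 RPKM), *Ubqln2* (53.4 RPKM) and *Hnrnpa1* (49.6 RPKM). *Hnrnpa2b1*, *Pfn1*, *Vapb*, *Chmp2b* and *Elp3* lay between 41.8 and 29.5 RPKM.

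With this length no member lay between *Elp3* at 29.5 RPKM and *Unc13a* at 11.5 RPKM. *Fig4* (11.3 RPKM), *Tbk1* (11.0 RPKM), *C9orf72* (9.04 RPKM), *Optn* (8.94 RPKM) and *Glt8d1* (8.22 RPKM) were close to each other. *Atxn2*, *Epha4*, *Sarm1*, *Nek1*, *Spg11*, *Erbb4*, *Tia1* and *Scfd1* covered 6.33 to 2.75 RPKM, and *Anxa11* (1.73 RPKM) and *Ccnf* ended the list. Of the 28 neighbouring pairs in this order, 20 had ranges over the 7 libraries that overlapped, so their order was not set apart from the spread between libraries. The pairs that did not overlap were *Kif5a* and *Sqstm1*, *Tuba4a* and *Dctn1*, *Hnrnpa1* and *Hnrnpa2b1*, *Vapb* and *Chmp2b*, *Elp3* and *Unc13a*, *Glt8d1* and *Atxn2*, *Scfd1* and *Anxa11*, and *Anxa11* and *Ccnf*.

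The order depended in part on the length that was used. RPKM was divided by all exons of a gene joined, which counts long and rarely used exons in full. With the mean length of coding transcripts, 4 genes moved by more than 5 places: *Atxn2* from place 20 to 11, *Tia1* from 26 to 18, *Scfd1* from 27 to 19, and *Fig4* from 15 to 23. *Kif5a* stayed first and *Ccnf* last, and the median was 31.5 RPKM. The gap below *Elp3* was not seen with that length, where *Unc13a* (33.4 RPKM) stood above *Elp3* (31.5 RPKM), and *Tbk1* (24.9 RPKM), *Glt8d1* (22.0 RPKM) and *Tia1* (18.2 RPKM) came next.

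**Figure D3:**
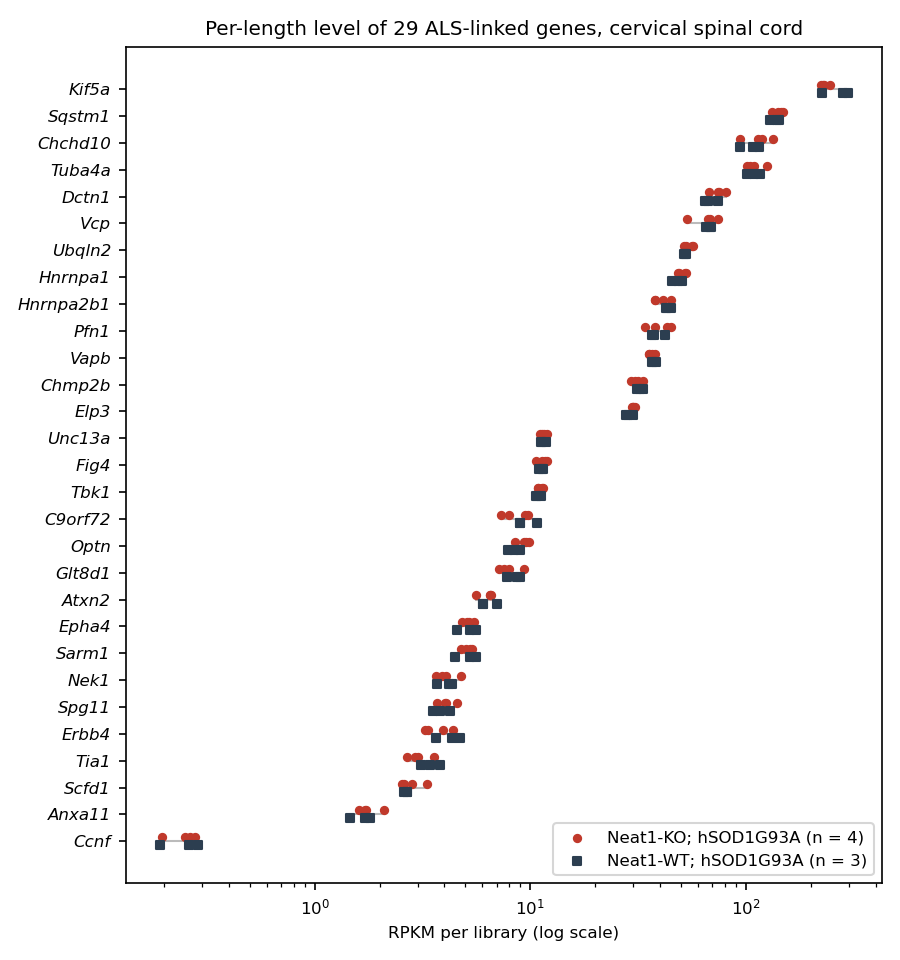
RPKM of the 29 genes in each library, on a log-scaled x axis, with genes on the y axis in order of the mean. Red circles are *Neat1*-KO (n = 4), dark squares *Neat1*-WT (n = 3), and the grey line spans the 7 libraries. The genes spread over a 1002-fold range of levels, while the libraries of a gene stay within 1.50-fold of each other.

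The promoters of these genes were rich in CpG. Of the 29 genes, 25 had a promoter in the RefSeq set (GRCm38.p6, 250 bases before to 50 after the start). *Ubqln2*, *Kif5a*, *Elp3* and *Nek1* were not in the set. In these windows of 300 bases the median GC content was 59.7% and the median number of CpG was 20, beside 52.7% and 7 over 27025 mouse promoters. The ratio of observed to expected CpG was over 0.6 in 20 of the 25 (80.0%) and in 36.4% of all promoters. The 27025 promoters were not limited to genes tested in the cord, and no set limited in that way was compared. The contrast is therefore not shown to be particular to ALS-linked genes. The exceptions included *Dctn1* with 3 CpG and *Chchd10* with 5. For each gene the first start listed in the set was used, and other starts were not examined. The *Dctn1* window (chr6:83179339-83179638) lies inside the gene, which begins at 83165920, so it does not describe the outermost start.

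Short motifs were looked for on both strands, with overlapping matches counted. The GC box GGGCGG stood in 17 of the 25 promoters and in 35.9% of all, and the *C9orf72* promoter held 5 copies. CCAAT stood in 8 (37.9% of all), with 5 copies in the *Vcp* promoter, and the TATA box TATAAA in 2, those of *Sqstm1* and *Vcp* (14.2% of all). The E-box CACGTG was in the promoters of *Atxn2* and *Tbk1* (7.24% of all), and the NRF2 core TGACNNNGC in those of *Sarm1*, *Scfd1*, *Unc13a* and *Vcp* (12.5% of all). The NRF1 motif was in 4 (4.78% of all) and the ETS motif CCGGAAG in 6 (9.12% of all). TGACGTCA, the cyclic AMP response element, was in none of the 25 (1.88% of all). A heat shock element of inverted GAA repeats was in 1, that of *Hnrnpa2b1* (0.529% of all). These matches describe letters in a window and were not tested as binding sites.

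The first role group holds receptors and enzymes of ubiquitin-dependent clearance. None of its 6 genes was called, 5 point estimates were above 0 and 1 was below, and all 6 intervals lay inside ±0.58. *Sqstm1* encodes p62, the receptor that links ubiquitin-marked cargo to the autophagosome, and it was the second highest of the 29 genes per length. Its CPM was 472.3, 488.4, 444.8 and 497.2 in *Neat1*-KO replicates 1 to 4 and 465.9, 478.7 and 434.3 in *Neat1*-WT replicates 2 to 4. The groups overlapped, and their means were 475.7 ± 23.1 and 459.6 ± 22.9 CPM (SD, n = 4 and 3). On the log2 scale the difference was 0.05 (SE 0.07). The end of the gene overlaps *Mrnip* on the opposite strand over 17.3% of its exon length, and *Mrnip* had 1.57% as many counts as *Sqstm1*.

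The *Sqstm1* promoter is shown because it joins a TATA box with GC boxes, a pairing that no other of the 25 promoters had. It lies on the minus strand at chr11:50210771-50211070 (GRCm38.p6, RefSeq), and capitals mark TATAAA and GGGCGG on either strand.
Sqstm1: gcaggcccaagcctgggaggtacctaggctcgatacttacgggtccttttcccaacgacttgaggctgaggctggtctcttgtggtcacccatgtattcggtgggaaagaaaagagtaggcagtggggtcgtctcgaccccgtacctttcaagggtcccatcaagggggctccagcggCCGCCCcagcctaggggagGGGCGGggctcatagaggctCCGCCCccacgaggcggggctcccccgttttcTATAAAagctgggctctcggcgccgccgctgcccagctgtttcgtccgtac

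*Optn* encodes optineurin, a receptor for damaged mitochondria and other ubiquitin-marked cargo. It had 37.1, 35.1, 31.9 and 36.0 CPM in *Neat1*-KO and 33.6, 29.5 and 31.6 CPM in *Neat1*-WT libraries. Its *Neat1*-KO replicates 1, 2 and 4 lay above every *Neat1*-WT library and replicate 3 did not. The log2 fold change of 0.15 had a 95% interval from −0.04 to 0.34 and an exact two-sided permutation p of 0.114, where 0.0286 is the smallest p that 4 against 3 libraries can give. *Tbk1*, the kinase that phosphorylates optineurin and p62, was among the least variable, with 42.4 to 44.9 CPM in *Neat1*-KO and 41.6 to 44.0 CPM in *Neat1*-WT and a log2 fold change of 0.03 (SE 0.07). *Tbk1* held 98.1% of the summed RPKM of *Tbk1* and its paralogue *Ikbke* in both genotypes.

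*Ubqln2*, a ubiquilin that brings ubiquitin-marked proteins to the proteasome, was at 181.6 ± 8.44 CPM in *Neat1*-KO and 174.7 ± 2.62 CPM in *Neat1*-WT (SD, n = 4 and 3). It made up 41.3% ± 1.42 (SD, n = 4) and 39.7% ± 0.734 (SD, n = 3) of the summed RPKM of *Ubqln1*, *Ubqln2* and *Ubqln4*, and the groups overlapped. *Ccnf* encodes cyclin F, the substrate-binding subunit of an SCF ubiquitin ligase that acts in dividing cells. It was the lowest of the 29 genes, at 1.95, 2.06, 1.53 and 2.17 CPM in *Neat1*-KO and 1.49, 2.24 and 2.04 CPM in *Neat1*-WT.

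*Vcp* encodes an ATPase that pulls ubiquitin-marked proteins out of complexes and membranes. Its CPM was 331.7, 260.1, 322.3 and 360.1 in *Neat1*-KO and 333.8, 330.4 and 317.6 in *Neat1*-WT. *Neat1*-KO replicate 2 was the low library, and the other 6 lay between 317.6 and 360.1 CPM. The log2 fold change was −0.04 (SE 0.09), with an interval from −0.24 to 0.17.

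The low value of *Neat1*-KO replicate 2 went together with a high value of a copy of the gene. *Vcp-rs* (ENSMUSG00000083327) is a processed pseudogene at chrX:104345829-104348234 on the minus strand, and over 2406 aligned bases it differs from the *Vcp* transcript at 8 bases and a gap of 15 bases. A read that matches both without a difference is not unique, so within the aligned bases these differences help to tell reads apart. The *Vcp* transcript is 3316 bases long, and its other bases lie outside the alignment to the copy. *Vcp-rs* had 3561 counts in *Neat1*-KO replicate 2 and 1290 to 1851 in the other libraries, and it took 35.6% of the reads of both genes there and no more than 18.1% elsewhere. The sum of both was 403.7 CPM in *Neat1*-KO replicate 2 and 383.4 to 430.7 CPM in the others. The coefficient of variation in *Neat1*-KO was 13.2% for *Vcp* and 4.12% for the sum. With the counts summed, a choice made after seeing the data, the log2 fold change was 0.05 (SE 0.06, 95% interval −0.09 to 0.19).

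The 60-base stretch with the most differences is printed to show how alike gene and copy are, with the differing bases in capitals. In *Vcp* it spans chr4:42984304-42984306 and chr4:42983520-42983576 (GRCm38, minus strand), the end of exon 12 and the start of exon 13 of 17, within the coding sequence. In *Vcp-rs* it is chrX:104346696-104346755 on the minus strand. Counted from 1 at the 5′ end, the substitutions from *Vcp* to *Vcp-rs* are T6C, T9C and C60T.
Vcp: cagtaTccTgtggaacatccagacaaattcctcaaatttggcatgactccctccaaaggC
Vcp-rs: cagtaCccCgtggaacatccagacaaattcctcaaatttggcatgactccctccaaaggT

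**Figure D4:**
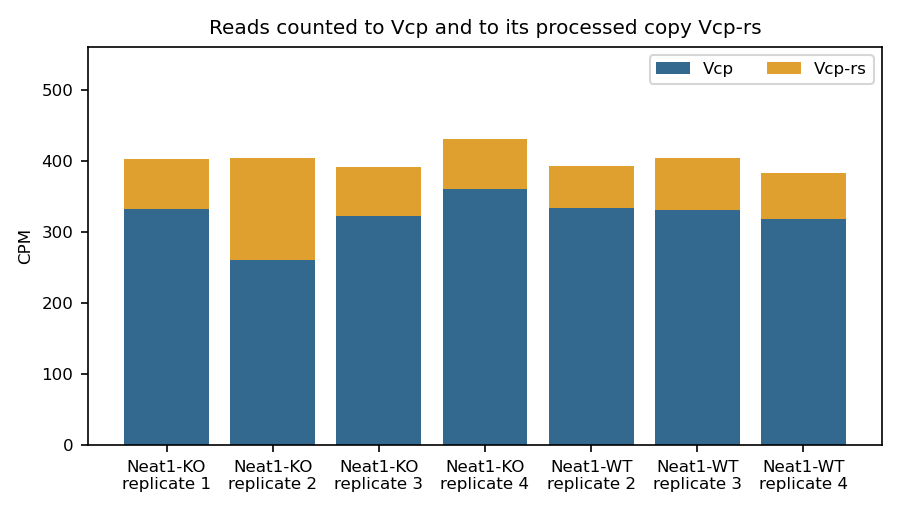
Counts assigned to *Vcp* (blue) and to its processed copy *Vcp-rs* (orange), stacked, in CPM (y axis, from 0) for the 7 libraries (x axis). The orange part is widest in *Neat1*-KO replicate 2 at 143.5 CPM and runs from 58.9 to 72.8 CPM elsewhere, while the full bars stay between 383.4 and 430.7 CPM.

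Genes that work with these proteins were compared in the same fit, and none was called. Of 8 autophagy receptors and TBK1 partners, 4 estimates were above and 4 below 0. The one with the smallest p was *Azi2*, a TBK1 adaptor, at 63.1 ± 3.29 CPM in *Neat1*-KO and 72.6 ± 5.20 CPM in *Neat1*-WT (SD, n = 4 and 3). Its log2 fold change was −0.20 (SE 0.08, adjusted p 0.992 in edgeR) and its groups did not overlap. *Tbkbp1*, another TBK1 adaptor, had the smallest p above 0, at 0.14 (SE 0.09). Of 17 VCP cofactors, 7 estimates were above and 10 below 0, from −0.15 for *Ubxn2b* to 0.08, with *Ufd1* at 0.08. Of 5 ubiquilins and SCF subunits, 2 were above and 3 below 0, with *Rbx1* at 0.07 and *Ubqln1* at −0.05.

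The second group acts on vesicles, endosomes and lysosomes. None of its 8 genes was called, 4 estimates were above and 4 below 0, and the median was −0.010. *C9orf72*, the gene whose repeat expansion is a frequent cause of familial ALS, encodes a protein that works with SMCR8 and WDR41 at lysosomes. It had 43.4, 33.7, 45.1 and 36.8 CPM in *Neat1*-KO and 49.3, 41.5 and 41.4 CPM in *Neat1*-WT. *Neat1*-KO replicates 2 and 4 lay below every *Neat1*-WT library and replicates 1 and 3 did not. The log2 fold change was −0.15 (SE 0.11), with an interval from −0.39 to 0.09 and an exact permutation p of 0.314.

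*Fig4*, a phosphatase that sets the level of a lysosomal phosphoinositide, was at 37.4 ± 1.96 CPM in *Neat1*-KO and 37.0 ± 0.937 CPM in *Neat1*-WT (SD, n = 4 and 3). *Vapb*, an anchor of the endoplasmic reticulum to other organelles, varied by 1.08-fold over all libraries, from 253.6 to 273.0 CPM. *Vapb* held 57.4% ± 0.789 of the summed RPKM of *Vapa* and *Vapb* in *Neat1*-KO and 57.8% ± 1.17 in *Neat1*-WT. *Chmp2b*, a subunit of the ESCRT-III complex that seals membranes, was at 56.8 to 64.5 CPM and 60.4 to 64.4 CPM. Its share of the RPKM of *Chmp2a* and *Chmp2b* was 35.8% ± 1.14 and 37.7% ± 1.97, which overlapped between the genotypes.

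*Anxa11*, an annexin that tethers RNA granules to lysosomes, was low at 6.65 to 8.63 CPM in *Neat1*-KO and 6.02 to 7.44 CPM in *Neat1*-WT, with an interval from −0.22 to 0.43. *Spg11* encodes spatacsin, which helps to rebuild lysosomes after autophagy. It was at 29.8 to 36.6 CPM and 28.4 to 34.0 CPM, and 13.8% of its exon length lies opposite *Eif3j1*. *Scfd1*, a regulator of membrane fusion between endoplasmic reticulum and Golgi, was at 43.6, 34.0, 37.3 and 33.6 CPM in *Neat1*-KO and within 34.0 to 35.2 CPM in the 3 *Neat1*-WT libraries. *Neat1*-KO replicate 1 was its high library. *Glt8d1*, a glycosyltransferase of the Golgi, was at 23.8 to 31.3 CPM and 25.9 to 29.98 CPM, again with *Neat1*-KO replicate 1 the highest.

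The partners of this group did not pass the test either. The C9ORF72 complex, the PIKfyve complex and the spatacsin partners gave 6 estimates above and 3 below 0 among 9 genes, with *Ap5b1* at 0.15 (SE 0.14) and *Smcr8* at −0.08 (SE 0.08). ESCRT-III and VPS4 gave 8 above and 4 below among 12 genes, with *Chmp6* at 0.18 (SE 0.11) and *Chmp1b* at −0.11 (SE 0.09). The paralogues of *Vapb*, *Anxa11* and *Glt8d1* and 3 genes of VAP-binding proteins (*Osbp*, *Osbpl3* and *Rmdn3*) gave 1 above, *Glt8d2* at 0.24 (SE 0.25), and 6 below, of which *Rmdn3* had the smallest p at −0.08 (SE 0.08).

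The third group builds the cytoskeleton and moves cargo along it. It held the most abundant of the 29 genes, and none of its 4 genes was called. *Kif5a* encodes the neuronal heavy chain of kinesin-1, the motor that carries organelles, neurofilaments and RNA granules outward along axons. At 247.5 RPKM it stood at the 99.5 percentile of all genes tested. Its CPM was 1554, 1716, 1599 and 1615 in *Neat1*-KO replicates 1 to 4 and 1984, 2073 and 1569 in *Neat1*-WT replicates 2 to 4. *Neat1*-WT replicates 2 and 3 lay above every *Neat1*-KO library, and *Neat1*-WT replicate 4 lay within the *Neat1*-KO range.

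The means of *Kif5a* were 1621 ± 68.4 CPM in *Neat1*-KO and 1875 ± 269 CPM in *Neat1*-WT (SD, n = 4 and 3). In edgeR the log2 fold change was −0.21 (SE 0.09), with a 95% interval from −0.40 to −0.02, an unadjusted p of 0.035 and an adjusted p of 0.992. The exact two-sided permutation p was 0.171. Without *Neat1*-WT replicate 4 the log2 fold change was −0.33, with an adjusted p of 0.432, and without *Neat1*-WT replicate 3 it was −0.13. At this depth a difference as large as 1.49-fold lay outside the interval.

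The other kinesin-1 heavy chains were also lower in mean. *Kif5b*, the heavy chain of most tissues, had 578.6, 559.5, 625.5 and 548.0 CPM in *Neat1*-KO and 735.1, 700.3 and 659.5 CPM in *Neat1*-WT. Its groups did not overlap, and the log2 fold change was −0.27 (SE 0.07, adjusted p 0.704 in edgeR, 0.075 in DESeq2), below the minimum of 0.58. *Kif5c*, a further neuronal heavy chain, was at 853.1 to 919.1 CPM and 928.9 to 1008 CPM, which did not overlap, with a log2 fold change of −0.09 (SE 0.06). *Kif5a* made up 53.9% ± 1.85 of the summed RPKM of the 3 heavy chains in *Neat1*-KO and 54.6% ± 3.06 in *Neat1*-WT, and these shares overlapped. With the mean length of coding transcripts the shares were 45.3% and 45.9%.

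Markers of motor neurons and of oligodendrocytes had estimates on the same side, and none was called. All 6 motor neuron markers (*Chat*, *Slc18a3*, *Slc5a7*, *Mnx1*, *Isl1* and *Prph*) were below 0, from −0.40 for *Slc5a7* to −0.09 for *Chat*, with adjusted p from 0.840 to 0.994 in edgeR. For 3 of the 6 the unadjusted p was under 0.05, beside 4.64% of all genes. Their summed level was 277.8 to 338.4 CPM in *Neat1*-KO and 359.7 to 428.1 CPM in *Neat1*-WT, without overlap, although the libraries of each single marker overlapped. All 5 oligodendrocyte markers were below 0 as well, with a median of −0.16 and an unadjusted p under 0.05 for 1 of them. That gene was *Mobp*, named after its values were seen, at −0.17 (SE 0.06, adjusted p 0.986 in edgeR), and its libraries did not overlap. The oligodendrocyte list summed to 31857 to 34818 CPM in *Neat1*-KO and 33408 to 40947 CPM in *Neat1*-WT, which overlapped. The 4 general neuron markers summed to 2813 to 3153 CPM and 2852 to 3349 CPM, which overlapped. Other lists leaned to one side too. Estimates were above 0 for 4 of 5 microglia, 4 of 5 meninges and all 3 tested Schwann cell markers, and below 0 for 4 of 5 blood markers. Astrocyte markers gave 2 above and 3 below 0, and vessel markers 2 and 2. The unadjusted p was under 0.05 for 2 of the 5 meninges markers. The part of motor neuron or oligodendrocyte RNA in the level of *Kif5a* and its relatives was not tested.

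**Figure D5:**
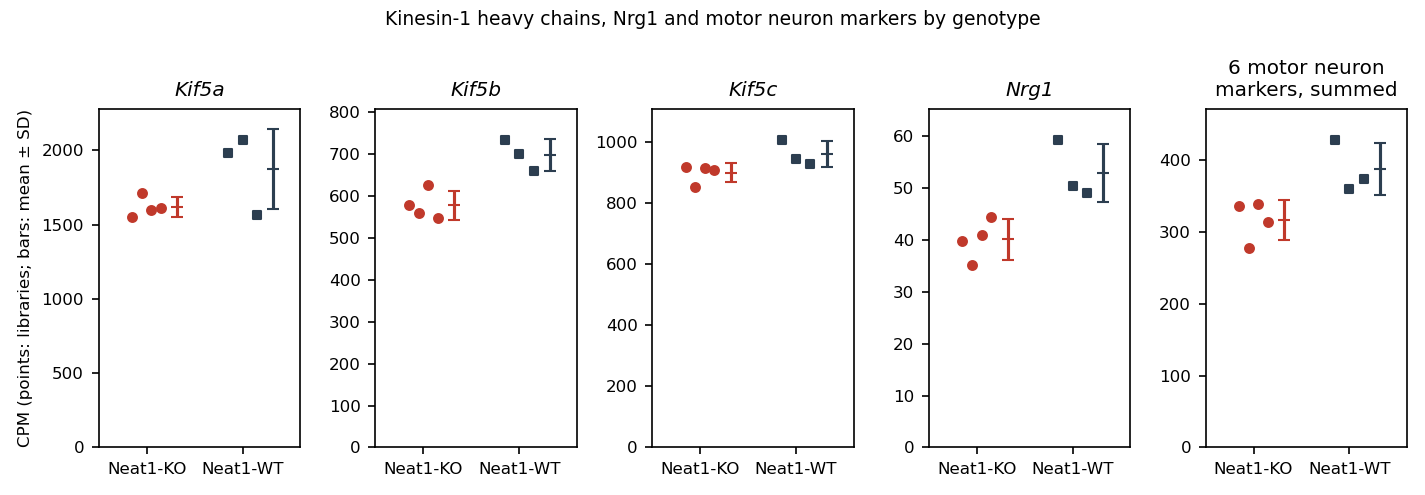
CPM (y axes, from 0) of the heavy chains *Kif5a*, *Kif5b* and *Kif5c*, of the ERBB ligand gene *Nrg1* and of 6 motor neuron markers summed, in *Neat1*-KO (red circles, n = 4) and *Neat1*-WT (dark squares, n = 3). Points are libraries and bars the mean ± SD. The genotypes overlap for *Kif5a*, where 1 *Neat1*-WT library sits at 1569 CPM, and do not overlap in the other panels. *Kif5b* and *Nrg1* were named for the smallest p below 0 in their lists, and *Kif5c* after its values were seen. The lack of overlap thus follows in part from the choice of panels. Of all genes tested 5.47% did not overlap, and no such share was computed for sums of 6 genes.

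*Dctn1* encodes the largest subunit of dynactin, which joins dynein to the cargo it carries back to the cell body. It had 490.7, 528.3, 441.1 and 485.1 CPM in *Neat1*-KO and 422.9, 485.5 and 432.3 CPM in *Neat1*-WT, with a log2 fold change of 0.12 (SE 0.08) and an interval from −0.05 to 0.29. *Tuba4a*, an α-tubulin, was at 374.4 to 465.9 CPM in *Neat1*-KO and 375.6 to 429.5 CPM in *Neat1*-WT. It held 17.7% ± 0.460 and 17.0% ± 0.851 of the summed RPKM of the 5 α-tubulin genes compared, and 38.8% and 37.7% with the mean length of coding transcripts. Of its exon length 37.3% lies opposite *Stk16*, the most among the 29 genes, and the strand setting of the counting was not given in the sources used here. *Pfn1*, the actin-binding profilin, was at 81.8 to 107.7 CPM and 88.4 to 101.1 CPM and held 24.9% ± 2.85 and 23.7% ± 2.35 of the RPKM of *Pfn1* and *Pfn2*.

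Among 18 other genes of kinesin-1, dynein and dynactin, 9 estimates were above and 9 below 0. *Dctn6*, a dynactin subunit, had the smallest p above 0, at 0.13 (SE 0.09). Of 5 other tubulins and profilins, 1 was above 0, *Tuba1c* at 0.12 (SE 0.16), and 4 were below, of which *Tuba1b* had the smallest p at −0.08 (SE 0.08).

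The fourth group binds RNA or acts in translation. None of its 5 genes was called, and 2 estimates were above and 3 below 0. *Tia1*, a protein that nucleates stress granules, had 47.5, 42.3, 56.5 and 45.9 CPM in *Neat1*-KO and 60.1, 48.8 and 54.2 CPM in *Neat1*-WT. *Neat1*-KO replicate 3 lay within the *Neat1*-WT range and the other 3 below it. This gave a log2 fold change of −0.18 (SE 0.11) and an interval from −0.41 to 0.05. *Tia1* held 20.99% ± 0.316 of the RPKM of *Tia1* and its paralogue *Tial1* in *Neat1*-KO and 21.9% ± 0.755 in *Neat1*-WT, with overlap.

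*Atxn2*, which binds messenger RNA and is found in stress granules, was at 87.9, 102.9, 102.4 and 102.0 CPM in *Neat1*-KO and 95.01, 94.7 and 109.7 CPM in *Neat1*-WT. *Neat1*-KO replicate 1 was its low library, and the genotypes differed by −0.01 (SE 0.08) on the log2 scale. *Elp3*, the catalytic subunit of Elongator, which modifies transfer RNA, was at 88.9 to 92.3 CPM in *Neat1*-KO and 83.3 to 89.6 CPM in *Neat1*-WT. The ranges met over a narrow span, with a log2 fold change of 0.07 (SE 0.07) and an exact permutation p of 0.057.

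*Hnrnpa1* and *Hnrnpa2b1* encode related nuclear proteins that bind and splice RNA and whose low-complexity tails carry ALS mutations. *Hnrnpa1* was at 159.7 ± 7.06 CPM in *Neat1*-KO and 152.1 ± 8.17 CPM in *Neat1*-WT (SD, n = 4 and 3). It has 18 copies in the genome at 90% identity or more over at least 50% of the copy, and together they held 8.15% as many counts as the gene, nearly all of them from *Gm10052*. *Hnrnpa2b1* was at 248.6, 248.4, 296.7 and 273.0 CPM in *Neat1*-KO and 285.2, 280.9 and 294.9 CPM in *Neat1*-WT. *Neat1*-KO replicate 3 was above every *Neat1*-WT library and the other 3 were below, with a log2 fold change of −0.11 (SE 0.08).

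The *Hnrnpa2b1* promoter is shown because it alone of the 25 held the heat shock element searched for. It lies on the minus strand at chr6:51469845-51470144 (GRCm38.p6, RefSeq), and capitals mark the match near the start of the gene. The 95% interval of *Hnrnpa2b1* ran from −0.27 to 0.06. The heat shock gene *Hspb1*, named after its values were seen, was called lower in *Neat1*-KO in the same fit, at −0.63 (SE 0.10, adjusted p 0.075 in edgeR). Other heat shock genes were not compared here. Motifs were reported for the 25 promoters only, and that of *Hspb1* is not among them. A role of the match in *Hnrnpa2b1* was not tested.
Hnrnpa2b1: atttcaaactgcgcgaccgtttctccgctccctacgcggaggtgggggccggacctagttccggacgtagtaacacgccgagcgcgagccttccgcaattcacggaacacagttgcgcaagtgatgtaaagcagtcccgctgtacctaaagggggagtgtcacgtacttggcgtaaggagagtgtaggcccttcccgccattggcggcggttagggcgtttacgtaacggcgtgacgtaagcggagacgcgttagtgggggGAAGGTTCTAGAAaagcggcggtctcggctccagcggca

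Of 10 paralogous RNA-binding proteins, 5 estimates were above and 5 below 0, with *Hnrnpa0* at 0.12 (SE 0.08) and *Hnrnph1* at −0.10 (SE 0.09). Of 5 other Elongator subunits, 3 were above and 2 below, with *Elp5* at 0.13 (SE 0.10) and *Elp4* at −0.09 (SE 0.11). None of these was called.

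The fifth group acts at the synapse and the cell surface, and none of its 3 genes was called. *Unc13a* encodes the protein that primes synaptic vesicles for release, and its cryptic exon is spliced in when TDP-43 is lost in human neurons. It was the gene with the narrowest range of libraries together with *Vapb*, at 140.3 to 151.1 CPM in *Neat1*-KO and 142.2 to 149.0 CPM in *Neat1*-WT, with a log2 fold change of 0.01 (SE 0.07). Counts per gene cannot show which exons were joined. *Epha4*, an ephrin receptor of motor axons, was at 41.5 ± 2.32 CPM and 41.4 ± 4.31 CPM (SD, n = 4 and 3).

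*Erbb4* encodes a receptor tyrosine kinase for neuregulins. It had 40.1, 41.6, 53.9 and 48.6 CPM in *Neat1*-KO and 53.6, 45.2 and 58.5 CPM in *Neat1*-WT. *Neat1*-KO replicates 1 and 2 lay below every *Neat1*-WT library and replicates 3 and 4 within their range. *Erbb4* thus had a log2 fold change of −0.19 (SE 0.12), with an interval from −0.44 to 0.07. Its share of the RPKM of *Erbb2*, *Erbb3* and *Erbb4* was 34.1% ± 3.21 in *Neat1*-KO and 33.4% ± 3.34 in *Neat1*-WT.

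The ligand gene *Nrg1* had the smallest p of all 122 partner genes. It encodes neuregulin 1, the ligand of the ERBB receptors, and was at 39.8, 35.1, 41.0 and 44.5 CPM in *Neat1*-KO and 59.3, 50.4 and 49.1 CPM in *Neat1*-WT. The groups did not overlap. The log2 fold change was −0.40 (SE 0.10, 95% interval −0.62 to −0.19), below the minimum, with an adjusted p of 0.649 in edgeR, 0.070 in DESeq2 and 0.679 in limma-voom. Over all alternatives the adjusted p of *Nrg1* ran from 0.011 without a filter on low counts to 0.9999. *Erbb3*, named after its values were seen because its unadjusted p was under 0.05, was at −0.25 (SE 0.10), and its libraries overlapped. Of the 10 ERBB and ephrin partners, 5 estimates were above and 5 below 0, and *Nrg3* had the smallest p above 0, at 0.20 (SE 0.12).

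Of 8 UNC13 paralogues and genes of the release machinery, 3 estimates were above and 5 below 0, and none was called. *Rims1*, of the active zone, had a log2 fold change of −0.11 (SE 0.08). *Unc13a* held 36.4% ± 1.85 of the RPKM of the 3 genes *Unc13a*, *Unc13b* and *Unc13c* in *Neat1*-KO and 34.7% ± 1.33 in *Neat1*-WT (SD, n = 4 and 3), with overlap. With the mean length of coding transcripts the shares were 57.8% and 56.1%.

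The last group acts in mitochondria, the axon and the genome, and none of its 3 genes was called. *Chchd10*, a small protein of the mitochondrial intermembrane space, came after *Kif5a* and *Sqstm1* per length. It had 209.4, 179.5, 148.0 and 187.6 CPM in *Neat1*-KO and 170.3, 181.7 and 148.7 CPM in *Neat1*-WT, and the log2 fold change of 0.12 (SE 0.11) had an interval from −0.12 to 0.35. *Neat1*-KO replicate 1 was its high library, and its share of the RPKM of *Chchd2* and *Chchd10* was 51.9% ± 1.26 and 50.7% ± 1.24. *Sarm1*, the enzyme that breaks down NAD+ in a cut axon, was at 28.7 ± 1.53 CPM and 28.8 ± 3.37 CPM, and *Nek1*, a kinase of cilia and DNA repair, at 32.3 ± 3.70 CPM and 32.2 ± 2.61 CPM (SD, n = 4 and 3).

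Of 8 CHCHD and NAD partners, 5 estimates were above and 3 below 0. *Nmnat2*, the axonal enzyme that makes NAD+, was at 151.6 ± 5.27 CPM in *Neat1*-KO and 163.8 ± 4.93 CPM in *Neat1*-WT (SD, n = 4 and 3). Its groups did not overlap, with a log2 fold change of −0.11 (SE 0.07). *Chchd6* had the smallest p above 0, at 0.11 (SE 0.10).

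Across the 13 partner lists, 0 of 122 genes were called by edgeR, DESeq2 or limma-voom, with 59 estimates above and 63 below 0 and a median of −0.004. In edgeR 4 of the 122 (3.28%) had an unadjusted p under 0.05, *Nrg1*, *Kif5b*, *Azi2* and *Erbb3*, beside 4.64% of all genes tested. The groups did not overlap for 7 of the 122, 2 higher and 5 lower, beside 2.91% and 2.57% of all genes tested. In each of the 14 sets of paralogues compared, the share of the ALS-linked gene overlapped between the genotypes, by either length. The size of the shares depended on the length, as given above for *Kif5a*, *Tuba4a* and *Unc13a*, and *Chchd10* for example held 36.1% and 34.99% with the mean length of coding transcripts.

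Overlaps and copies limit how far reads can be assigned to these genes. Exons of 11 of the 29 genes overlap a gene on the opposite strand, with *Tuba4a* (37.3%), *Sqstm1* (17.3%), *Spg11* (13.8%) and *Chchd10* (9.8%, with *Mmp11*) the most affected, and without strand in the counting the reads of such a pair cannot be told apart. Near-identical copies elsewhere in the genome exist for 7 of the 29, and outside *Vcp*, *Hnrnpa1* and *Anxa11* (1.54%) they held at most 0.207% as many counts as the gene. Only uniquely mapped reads were counted. Reads that match a gene and its copy alike are therefore missing from both, and these shares do not show how many were lost.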

How the data were processed

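Gene counts from 7 poly(A) libraries of cervical spinal cord were used, and samples were grouped by the genotype in their labels. Per the labels and the methods, the authors trimmed paired reads (Trimmomatic 0.38), aligned them to mm10 (HISAT2 2.1.0), and counted uniquely mapped reads per gene (featureCounts 1.6.3). The values are raw counts as deposited by the authors, without normalization. Annotation release and strand setting are not given in the sources used here.

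Symbols, positions and lengths came from GENCODE M21 (GRCm38), which named 55227 of 55487 genes. The 18449 genes that passed edgeR's filterByExpr were compared between *Neat1*-KO and *Neat1*-WT in edgeR 4.0.16 (R 4.3.3), with TMM factors and quasi-likelihood F-tests. The biological coefficient of variation was 0.128, and intervals of 95% used each standard error and its degrees of freedom. An exact permutation test over 35 splits was also run, 1 gene at a time. DESeq2 1.42.0 and limma 3.58.1 were alternatives, with other scalings and filters, a replicate block, an *Xist* covariate and each library left out. Copies were searched for with BLAST 2.17.0, and Python 3.11.15, pandas 2.3.3 and matplotlib 3.10.9 were used. The fits were tested on simulated data.

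The members and all lists were chosen with earlier results of these data known, although the rule for the members used no measured value. Named genes were the 29 members, *Neat1*, in each partner list the gene with the smallest p in each direction, the defining marker of each marker list and markers at 0 in any library, of which 2 genes are not reported here. *Erbb3*, *Kif5c*, *Hspb1*, the other motor neuron markers and the paralogues were named beside these after values had been seen. Any 2 libraries of a genotype gave a chi-square per gene of 8.06 to 17.7, above the sampling noise, so none was a duplicate. P-values measure the spread between these mice.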

Additional observations from a re-analysis of the deposited data

Results flagged for a closer look

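In 2 of 56 results looked at, 1 *Neat1*-KO library stood apart from the other 3 by Dixon's test, where chance gives about 2.8. For *Atxn2* the gap of *Neat1*-KO replicate 1 (87.9 CPM) to the nearest of the others was 0.941 of the range, and replicates 2, 3 and 4 lay between 102.0 and 102.9 CPM. For *Rbx1*, a subunit of SCF ubiquitin ligases, the gap was 0.873 of the range, with 120.9 CPM in *Neat1*-KO replicate 1 and 98.5 to 101.3 CPM in the others. The groups of 3 *Neat1*-WT libraries were too small for this test.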

How the results depend on the processing

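No member and no partner gene was called under any of the alternatives run, and 28 or 29 of the 29 intervals stayed inside ±0.58, the exception being *Ccnf* by DESeq2, with the block, with the *Xist* covariate and with any 1 library left out. Over all genes the number called was 124 without a filter on low counts, 27 by DESeq2 and 39 with the replicate number as a block, and 3 to 31 with 1 library left out (3 without *Neat1*-WT replicate 3, 11 without *Neat1*-WT replicate 4, 31 without *Neat1*-KO replicate 1). Without a filter 5 cell type markers were called, *Prx* with an estimate above 0 and *Acta1*, *Ckm*, *Myh4* and *Tnnt3* with estimates below 0 (named after their values were seen). These muscle genes were each highest in 1 library, *Neat1*-WT replicate 4, with *Myh4* at 4.64 CPM there and at most 0.11 CPM elsewhere. *Prx* ran from 3.03 to 47.1 CPM within *Neat1*-KO. The calls are therefore not read as a difference between the genotypes. The members' median log2 fold change was 0.0496 with *Xist* as a covariate and 0.00417 to 0.0297 with 1 library left out, the highest without *Neat1*-KO replicate 2. *Xist* had at most 4 counts in every library, so this covariate varied within counting noise, and the labels do not give the sex of the mice. Without *Neat1*-KO replicate 3, 6 members had an unadjusted p under 0.05, with no share over all genes of that fit to set beside it. The median level was 31.5 RPKM with the mean length of coding transcripts and 38.6 as TPM.

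Estimates near 0 changed sign under some settings, with none past the threshold. With median-of-ratios factors *Epha4* was at −0.0041 and *Nek1* at −0.000221, without a filter *Epha4* was at −0.00211, and by DESeq2 *Epha4* was at −0.00384 and *Nek1* at −0.000182. With the replicate block *Fig4* was at −0.00931, *Tuba4a* was at −0.0543, *Pfn1* was at −0.00252, *Atxn2* was at 0.041 and *Rbx1* at −0.000486. With the *Xist* covariate *Vcp* was at 0.0971, *Tuba4a* was at −0.0718, *Atxn2* was at 0.0496, *Unc13a* was at −0.00964 and *Rbx1* at −0.0259. *Vcp* summed with *Vcp-rs* was at 0.0506. With 1 library left out the ranges were −0.104 to 0.0461 for *Vcp*, −0.148 to 0.133 for *Ccnf*, −0.011 to 0.0496 for *Fig4*, −0.0586 to 0.0621 for *Tuba4a*, −0.0203 to 0.11 for *Pfn1*, −0.051 to 0.057 for *Atxn2*, −0.0135 to 0.0265 for *Unc13a*, −0.0787 to 0.0665 for *Epha4*, −0.0945 to 0.071 for *Sarm1*, −0.0732 to 0.0538 for *Nek1*, −0.00516 to 0.104 for *Rbx1* and −0.0287 to 0.234 for *Tuba1c*. The cause was not tested.

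Libraries with the same number did not deviate together (r of −0.24, −0.16 and −0.01 for numbers 2, 3 and 4 across genes, beside −0.02 to 0.19 for libraries with different numbers), so the numbers were not taken to pair mice. No fit with crossed numbers was made. With the block 0 members and 0 partners were called.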
